A study of Mus musculus with 4 samples.

Results

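The Arp2/3 complex is a set of 7 proteins that binds the side of an actin filament and starts a new branch from it. Its transcripts were followed through the 10 mouse genes that encode its subunits, chosen by name: Actr2, Actr3, Actr3b, Arpc1a, Arpc1b, Arpc2, Arpc3, Arpc4, Arpc5 and Arpc5l. All 10 were found among the 27179 genes of the deposited table. The study compared the kidney medulla, the inner kidney with the loops of Henle and collecting ducts, of wild-type control mice and of Actr3-fl/fl*Cdh16-Cre mice, labelled Actr3 KO, at postnatal day 14 on a mixed C57BL/6 background, with 2 libraries of total RNA in each group. In the second group Cre recombinase is driven from Cdh16, a cadherin gene that renal tubule cells express, so blood, vessel and stromal cells of the medulla are not the cells in which Actr3 was to be deleted. The labels do not give the alleles carried by the controls beyond wild type. Tubule markers were read in all 4 libraries, but many were lower in those labelled KO. In normalized read counts, Slc12a1 of the thick ascending limb read 239881 and 241824 under WT, against 39222 and 28751 under KO. Umod of the same limb read 136828 and 143709 against 203680 and 138033, and its groups overlapped. Aqp2 of the collecting duct read 27437 and 34871 against 6961 and 4576, and Cdh16 itself 84350 and 99754 against 41457 and 37685. Of 12 medullary tubule markers, 7 were lower and 2, Krt8 and Krt18, were higher by the test given below. Umod, Epcam and Cdh1 did not pass. Of all genes tested, 24.9% were lower and 26.3% higher.

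In the complex, Arp2 and Arp3, encoded by Actr2 and Actr3, are actin-related proteins that together mimic the end of a filament, and the ARPC subunits hold them and dock the complex on the mother filament. In the mouse, 3 positions have a choice of gene: Arp3 (Actr3 or Actr3b), ARPC1 (Arpc1a or Arpc1b) and ARPC5 (Arpc5 or Arpc5l), whereas Arp2, ARPC2, ARPC3 and ARPC4 each come from a single gene. The complex is inactive until a nucleation-promoting factor such as N-WASP, a WAVE protein or WASH binds it. In tubule epithelium branched actin is known for its part in cell junctions, endocytosis and membrane traffic.

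The coding sequences of each isoform pair were compared first, because reads can be assigned to one gene of a pair only where the sequences differ. The following windows of 60 bases surround the longest run shared by each pair, 5′ to 3′ in the coding strand of GENCODE M21 transcripts (GRCm38), with bases that match the partner at the same place in capitals.
Arpc1a: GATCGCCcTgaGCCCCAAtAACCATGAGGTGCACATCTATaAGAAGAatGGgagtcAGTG
Arpc1b: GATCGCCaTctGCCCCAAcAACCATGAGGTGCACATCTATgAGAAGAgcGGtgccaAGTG
Arpc5: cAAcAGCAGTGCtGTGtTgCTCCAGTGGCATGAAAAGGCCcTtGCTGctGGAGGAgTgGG
Arpc5l: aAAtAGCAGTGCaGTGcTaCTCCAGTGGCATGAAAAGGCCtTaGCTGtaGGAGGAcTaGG
Actr3: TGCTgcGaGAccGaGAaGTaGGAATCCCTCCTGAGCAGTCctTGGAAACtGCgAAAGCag
Actr3b: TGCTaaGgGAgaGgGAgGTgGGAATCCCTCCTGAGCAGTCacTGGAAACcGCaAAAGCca
The longest exact run was 21 bases between Arpc1a and Arpc1b, 21 between Arpc5 and Arpc5l and 20 between Actr3 and Actr3b. Over the aligned coding bases, identity was 74.5% for the Arpc1 pair, 71.3% for the Arpc5 pair and 76.3% for the Actr3 pair. Within the coding sequences, a read longer than 21 bases therefore had no exact match in both genes of any pair.

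Arpc1a and Arpc1b are also neighbours in the genome. In GRCm38, Arpc1a (Entrez 56443) lies on chromosome 5 from 145083869 to 145108756 and Arpc1b (Entrez 11867) from 145114256 to 145128186, both on the plus strand, with 5499 bases between them. Their upstream regions are shown because the 2 genes had different values in the comparison. The 250 bases before each RefSeq gene start (GRCm38.p6) are given 5′ to 3′ on the plus strand, chr5:145083619-145083868 for Arpc1a and chr5:145114006-145114255 for Arpc1b, with matches to 6 searched motifs in capitals.
Arpc1a: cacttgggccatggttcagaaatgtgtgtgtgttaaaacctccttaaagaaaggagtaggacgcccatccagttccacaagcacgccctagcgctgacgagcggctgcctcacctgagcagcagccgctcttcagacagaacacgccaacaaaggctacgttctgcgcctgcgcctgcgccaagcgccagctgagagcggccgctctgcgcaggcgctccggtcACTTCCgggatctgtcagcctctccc
Arpc1b: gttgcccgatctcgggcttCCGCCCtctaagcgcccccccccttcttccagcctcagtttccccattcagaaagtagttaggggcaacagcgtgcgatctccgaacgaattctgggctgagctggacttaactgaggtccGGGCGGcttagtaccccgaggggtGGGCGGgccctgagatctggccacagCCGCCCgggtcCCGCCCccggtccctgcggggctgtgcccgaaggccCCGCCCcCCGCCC
The motifs were GGGCGG (the core known for Sp1), CCAAT (bound by NF-Y), then GGAAGT (an ETS core), TGANTCA (AP-1), GGAATG (TEAD) and the CArG box of SRF, on both strands, of which some can overlap by end bases. They were searched in a window of 300 bases that adds the 50 bases after the start. GGGCGG was found 7 times for Arpc1b and 0 times for Arpc1a, and it stood in 6 of the 8 subunit genes matched, against 35.7% of the 32851 promoter windows of the RefSeq table. GGAAGT was found in 7 of 8, against 23.8% of all windows, CCAAT in 2 (37.4%) and GGAATG in 1 (14.7%). A CArG box was found in 1 of 8, that of Arpc4, against 1.63% of all, and TGANTCA in 0 of 8, against 7.81%. Actr3b and Arpc5l were not matched. By number of CG pairs the 8 windows lay at percentiles 75.2 to 96.5 of all windows. The motif shares were not compared with windows of like CG content. These matches describe the letters of the windows only.

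The targeted gene checks the labels and is given first. Actr3 (Entrez 74117, chromosome 1, 125392905 to 125435727, GRCm38) read 8065 and 7275 normalized counts in the libraries labelled WT, against 12587 and 12480 for the label KO. The KO-labelled values were higher, with no overlap. The labels do not name the floxed exon, and a count over the whole gene includes exons that Cre leaves in place, so these values do not show whether a deletion took place. Groups are therefore named by label only, and every direction below rests on those labels. The protocol names 2 animals per genotype. The limma p-values rest on the spread between these 4 libraries, with each gene's spread drawn toward that of genes of like level. In bulk tissue, fewer cells of a type and less RNA per cell cannot be told apart.

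Of the 10 subunit genes, 7 were higher in the KO-labelled libraries, 0 were lower and 3 did not pass the threshold (limma on log2(value + 1), Benjamini-Hochberg adjusted p under 0.05). Across all 16253 genes tested, 51.2% passed in either direction, 26.3% higher and 24.9% lower. The median log2 difference of the 10 genes, KO-labelled minus WT-labelled, was 0.59, and that of all genes tested was 0.0029. The groups did not overlap for 9 of the 10 genes, all 9 with the KO-labelled libraries higher; 78.5% of all genes had groups that did not overlap and 39.8% did so in that direction. All 10 passed the filter on low values. The log2(value + 1) scale understates the change of low genes, which among these concerns Actr3b.

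**Figure D1:**
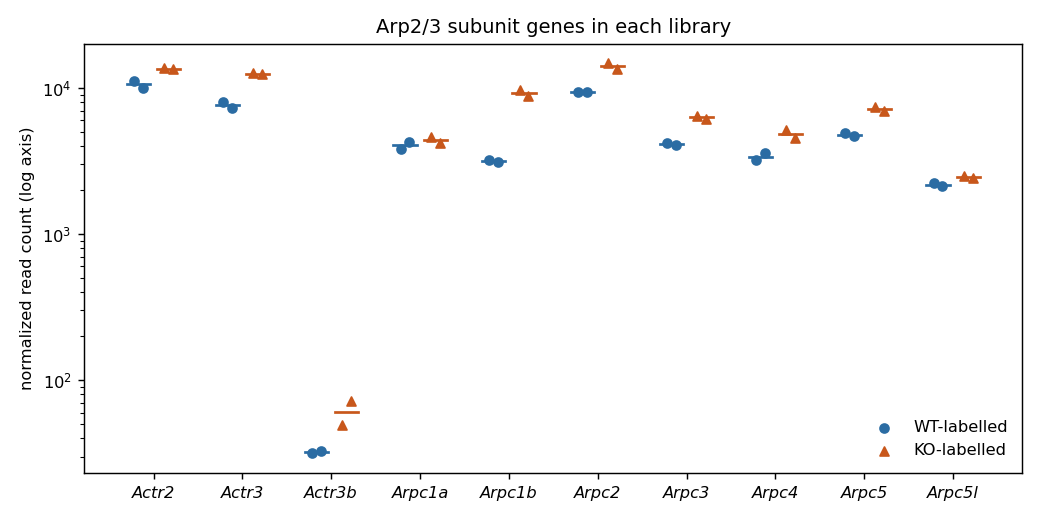
Normalized read counts (log axis) of the 10 subunit genes in each library, WT-labelled as blue circles and KO-labelled as orange triangles, with bars at the group means. The pair of groups overlaps for Arpc1a, and Arpc1b has the widest separation, from 3204 and 3119 to 9735 and 8821.

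Among the actin-related subunits, the difference of Actr3 was 0.71 (SE 0.082, limma adjusted p = 0.000494), a 1.63-fold higher mean. Its partner Actr2 (Entrez 66713, chromosome 11, 20062304 to 20112951) read 11222 and 10058 under the WT label, against 13645 and 13509 under KO. Both KO-labelled values were higher. The group means were 10640 ± 823 and 13577 ± 96.2 (SD, n = 2), and the log2 difference of 0.35 (SE 0.084, limma adjusted p = 0.0116) lost the call without WT replicate 2 (0.27, adjusted p = 0.0525), without KO replicate 1 (0.35, adjusted p = 0.0548) and under a variance model with no trend (adjusted p = 0.0576). Actr3b (Entrez 242894, chromosome 5, 25759941 to 25850691), the second Arp3 gene, known mainly from brain, read only 31.5 and 32.8 against 49.3 and 71.6. Its KO-labelled values were higher but far apart, and the log2 difference of 0.87 (SE 0.32, limma adjusted p = 0.057) did not pass; it passed with 5 as the pseudocount (0.80, adjusted p = 0.0499) and under a model without a variance trend (adjusted p = 0.0393).

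ARPC1 is a propeller-shaped subunit that contacts the activating factors, and its genes had the smallest and the largest log2 difference of the 10. Arpc1b, the form abundant in blood-lineage cells, read 3204 and 3119 in the WT-labelled libraries and 9735 and 8821 in the KO-labelled ones. Every KO-labelled value was more than any WT-labelled value, and the mean went from 3162 ± 60.04 to 9278 ± 646 (SD, n = 2), 2.93-fold higher (log2 difference 1.55, SE 0.081, limma adjusted p = 2.17e-05). Arpc1a, the widely expressed form, read 3819 and 4272 against 4632 and 4227. Its groups overlapped, and the log2 difference of 0.13 (95% interval -0.08 to 0.35, limma adjusted p = 0.264) did not pass. The order of the genes by read count thus differed between groups: Arpc1a read higher than Arpc1b in both WT-labelled libraries and lower in both KO-labelled ones.

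The subunits with a single gene form the body of the complex. Arpc2 (Entrez 76709, chromosome 1, 74236490 to 74268209), which with ARPC4 makes the core that binds the mother filament, read 9378 and 9321 against 14695 and 13543. Arpc4 (Entrez 68089, chromosome 6, 113378113 to 113390447) read 3209 and 3561 against 5130 and 4509. Arpc3 (Entrez 56378, chromosome 5, 122391878 to 122406181), a subunit that touches Arp3, read 4200 and 4054 against 6444 and 6129. In each of these genes the lowest KO-labelled value lay above the highest WT-labelled value. The log2 differences were 0.59 for Arpc2 (SE 0.079), 0.51 for Arpc4 (SE 0.097) and 0.61 for Arpc3 (SE 0.075), with limma adjusted p of 0.000922, 0.00456 and 0.000676. The last bases of Arpc4 overlap the annotated gene Ttll3 by 1188 bases; Ttll3 read 194 and 172 against 144 and 133, far below Arpc4.

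ARPC5 is the subunit that links ARPC1 to the rest of the complex. Arpc5 (Entrez 67771, chromosome 1, 152766542 to 152775580) read 4909 and 4664 against 7373 and 7000, with no overlap. Its log2 difference was 0.59, with an SE of 0.077 (limma adjusted p = 0.00085). Arpc5l (Entrez 74192, chromosome 2, 39008066 to 39015878) read 2230 and 2123 against 2491 and 2407. Its groups did not overlap, but the log2 difference of 0.17 (95% interval -0.02 to 0.36, limma adjusted p = 0.12) did not pass.

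**Figure D2:**
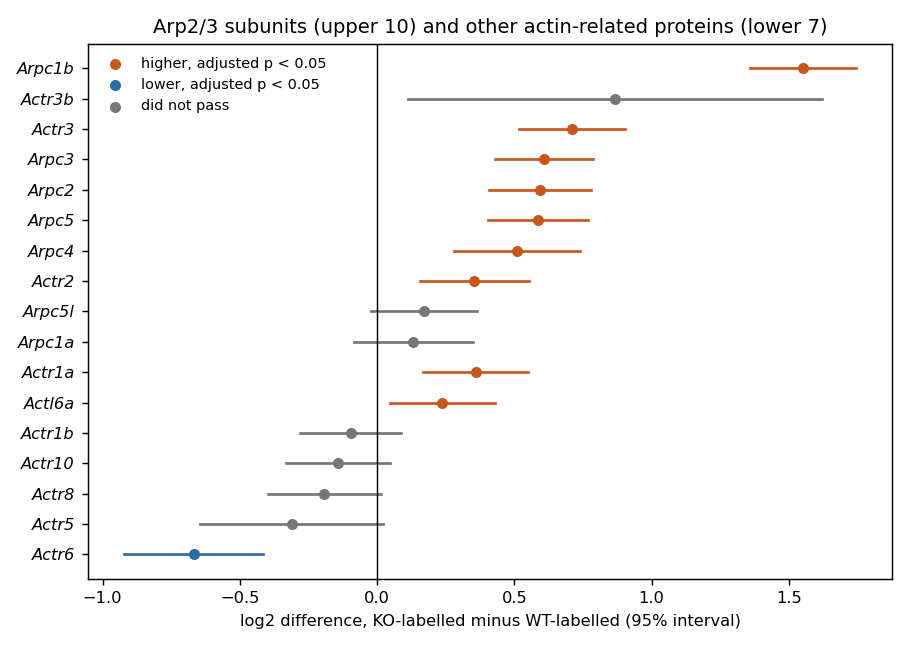
Log2 difference, KO-labelled minus WT-labelled, with its 95% interval (limma), for the 10 Arp2/3 subunits and, under them, 7 actin-related proteins outside the complex; orange and blue mark higher and lower genes at an adjusted p under 0.05, grey those that did not pass. The subunits range from 0.13 (Arpc1a) to 1.55 (Arpc1b), and the other actin-related proteins from -0.67 (Actr6) to 0.36 (Actr1a).

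Whether the genes of a pair moved differently was tested as a difference of their log2 differences, by fitting all genes after subtracting the log2 value of the partner in each library. In this fit the partner's own error enters every row, so the share of all genes called is given beside each result, together with an unadjusted p from the standard errors of both genes in the fit of single genes, a calculation chosen after seeing the data. With 2 against 2 libraries an exact two-sided permutation test cannot go below p = 0.333, the value it gave for the Arpc1 and Arpc5 pairs.

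The Arpc1 pair shifted to Arpc1b. Its log2 ratio to Arpc1a was -0.25 and -0.45 in the WT-labelled libraries and 1.07 and 1.06 in the KO-labelled ones. The ratio was 2.67-fold higher, a difference of 1.42 (SE 0.11, limma adjusted p = 0.000187), in a fit in which 42.5% of genes passed, 16.5% higher and 26% lower. The combined error (SE 0.12) gave p = 8.35e-06, where the exact permutation test gave 0.333. As a share of the reads of both genes, Arpc1b made up 45.6% (exact binomial 95% interval 44.5% to 46.8%) and 42.2% (41.1% to 43.3%) in the WT-labelled libraries. It made up 67.8% (67.0% to 68.5%) and 67.6% (66.8% to 68.4%) in the KO-labelled libraries. Intervals cover counting error only. Per length of merged exons the shares were 30.5% and 27.7% against 52.4% and 52.2%, and per coding length 45.2% and 41.8% against 67.4% and 67.2%, so Arpc1b was the minority form in both WT-labelled libraries and the majority form in both KO-labelled ones on all of these scales.

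The Arpc5 pair moved less, and away from its second gene. The log2 ratio of Arpc5l to Arpc5 was -1.14 and -1.13 under the WT label, against -1.57 and -1.54 under KO. The replicates of each group lay close together and the groups did not overlap. The difference was -0.42 (SE 0.090, limma adjusted p = 0.00372), a 1.33-fold lower ratio, in a fit in which 73.9% of genes passed, 10% higher and 63.9% lower. The combined error gave p = 0.00745, where the exact permutation test gave 0.333. The share of Arpc5l was 31.2% (30.2% to 32.3%) and 31.3% (30.2% to 32.4%) of the reads of both genes against 25.3% (24.4% to 26.2%) and 25.6% (24.7% to 26.5%), each with its exact binomial interval. Arpc5 was thus the more abundant form by reads in all 4 libraries.

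For the Actr3 pair no shift was detected. Actr3b made up 0.389% (0.266% to 0.549%) and 0.449% (0.309% to 0.63%) of the reads of both genes in the WT-labelled libraries and 0.39% (0.286% to 0.52%) and 0.57% (0.45% to 0.713%) in the KO-labelled ones. The values of the groups overlapped. The log2 ratio differed by 0.16 (95% interval -0.62 to 0.93, limma adjusted p = 0.683; exact two-sided permutation p = 1), in a fit in which 77.7% of genes passed, 8.62% higher and 69.1% lower. With 32 to 76 reads of Actr3b per library, the interval covers a 1.5-fold change in either direction.

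**Figure D3:**
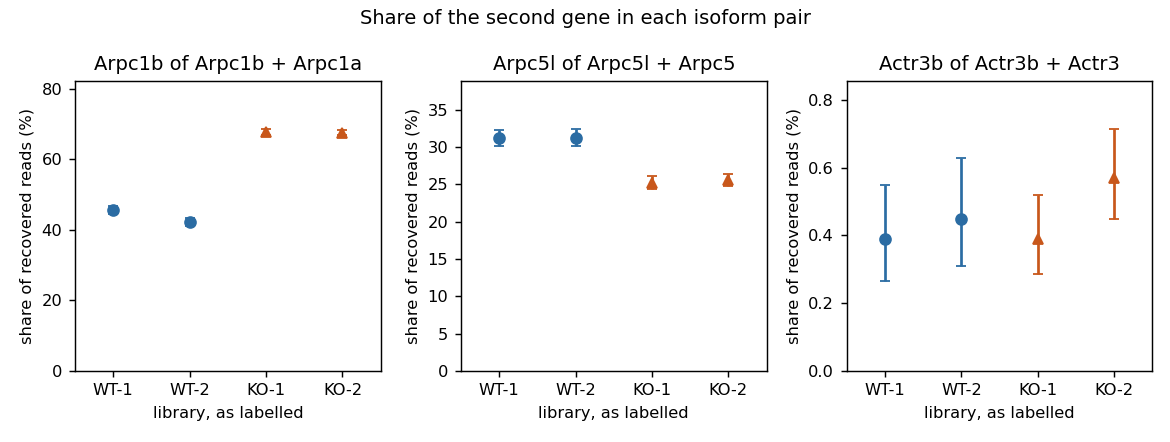
Share of recovered reads (%) from the second gene of each isoform pair in every library, with exact binomial 95% intervals (counting error only) and axes starting at 0. Arpc1b goes from 45.6% and 42.2% in the WT-labelled to 67.8% and 67.6% in the KO-labelled libraries, Arpc5l from 31.2% and 31.3% to 25.3% and 25.6%, and Actr3b stays under 1%.

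The balance between subunits was read against the mean log2 value of the 4 single-gene subunits Actr2, Arpc2, Arpc3 and Arpc4 in each library. Arpc1b stood at -0.94 and -0.96 relative to that mean in the WT-labelled libraries and at 0.11 and 0.06 in the KO-labelled ones. It was higher by 1.04 (SE 0.080, limma adjusted p = 3.55e-05). Arpc1a went from -0.68 and -0.51 to -0.96 and -0.996, a difference of -0.38 (SE 0.092, limma adjusted p = 0.00688). Arpc5l went from -1.46 and -1.51 to -1.86 and -1.81, a difference of -0.35 (SE 0.087, limma adjusted p = 0.00852). In this fit 71.1% of all genes passed, 10.9% higher and 60.2% lower. The combined error gave p = 9.96e-06, 0.00664 and 0.00701 for the same genes, where an exact permutation test of these libraries cannot go below 0.333.

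Actr3, Arpc5 and Actr3b differed from the reference mean by 0.19 (95% interval -0.01 to 0.40), 0.07 (-0.12 to 0.26) and 0.35 (-0.44 to 1.15), and none of these passed. The reference genes themselves moved by -0.16 (Actr2), 0.08 (Arpc2), 0.09 (Arpc3) and -0.01 (Arpc4) around their mean, given without a test. Arpc1a and Arpc5l, with differences of 0.13 and 0.17 that did not pass on their own, were thus lower relative to the mean of these 4 genes, as was a majority of all genes, and Arpc1b was higher relative to it.

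**Figure D4:**
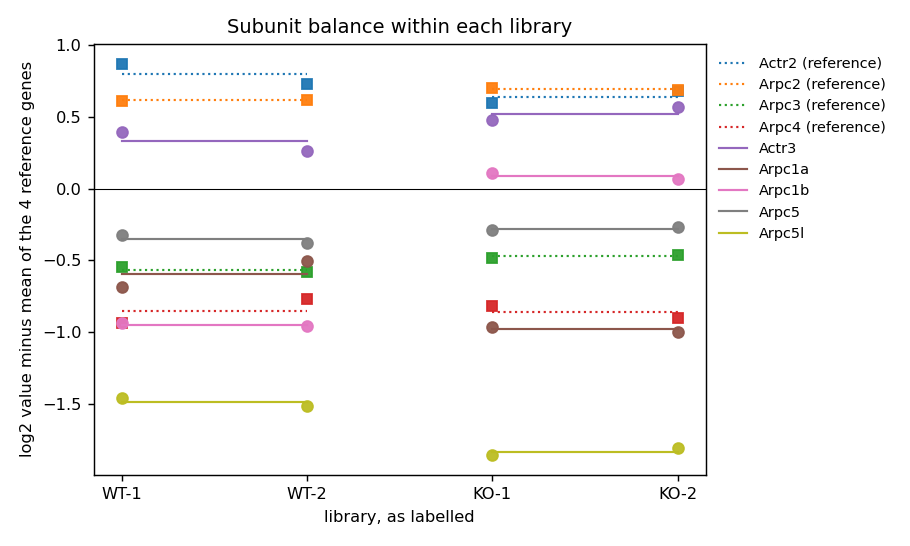
Log2 value of each subunit gene minus the mean of the 4 reference genes (squares, dotted group means) in every library, with the other genes as circles and solid group means; Actr3b, far below the others, is left out. Arpc1b moves from -0.94 and -0.96 to 0.11 and 0.06, and Arpc1a and Arpc5l move down.

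Summed by position in the complex, the normalized counts of the ARPC1 genes were 7207 ± 261 in the WT-labelled and 13708 ± 932 in the KO-labelled libraries (SD, n = 2), a 1.90-fold difference. The Arp3 position differed 1.64-fold, ARPC3 1.52-fold, ARPC2 1.51-fold, ARPC4 1.42-fold and ARPC5 1.38-fold. Arp2 had the smallest of these ratios, 1.28-fold. The sums are described without a test.

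Levels of different genes were compared per kilobase of merged exons of protein-coding transcripts. In the WT-labelled libraries Arpc2 was highest at 5211 ± 22.5 normalized counts per kilobase (SD, n = 2), followed by Arpc3 at 3527 ± 87.8. Actr2 at 2930 ± 227 and Actr3 at 2901 ± 211 overlapped between libraries, but within each library Actr2 was slightly higher (3091 against 3050 and 2770 against 2751.5). Arpc5 at 2501 ± 90.6 and Arpc1a at 2479 ± 196 did not differ beyond their spread. Arpc5l at 1625 ± 56.4, Arpc4 at 1459 ± 107 and Arpc1b at 1014 ± 19.3 followed, and Actr3b came last at 15.4 ± 0.435.

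In the KO-labelled libraries the per-kilobase order was Arpc2 (7870 ± 454), Arpc3 (5373 ± 190), Actr3 (4740 ± 28.4), and then Arpc5 (3755 ± 138) and Actr2 (3739 ± 26.5), whose values overlapped. Arpc1b followed at 2977 ± 207 and Arpc1a at 2714 ± 176. Their values overlapped between libraries, but within each library Arpc1b was the higher (3123 against 2839 and 2830 against 2590). Arpc4 (2077 ± 189), Arpc5l (1829 ± 44.0) and Actr3b (29.0 ± 7.54) came last. Per kilobase of coding sequence, a choice made after seeing the data, Arpc5 came first in both groups (10566 ± 383 and 15864 ± 582), within the spread of Arpc2 (10388 ± 44.8 and 15688 ± 905), so the order of levels depends on the length used. By either length Arpc1b was ninth of the 10 in the WT-labelled libraries; it was sixth by merged exons and seventh by coding length in the KO-labelled ones.

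Markers of other cells moved in the same libraries. All 6 pan-leukocyte markers were higher, with a summed level of 2538 to 2870 in the WT-labelled and 11919 to 11921 normalized counts in the KO-labelled libraries, and all 16 macrophage and dendritic cell markers were higher, from 15942 to 19641 up to 71965 to 77428. Their median log2 differences were 2.32 and 2.54. Of 8 tested lymphocyte markers 3 were higher and 0 lower (sums 168 to 197 and 248 to 314), and of 3 tested neutrophil markers 1 was higher and 0 lower (sums 169 to 196 and 289 to 366). No marker of these lists was at 0 in all 4 libraries, and the neutrophil genes Ly6g and Elane had no reads in the WT-labelled ones. Of 9 fibroblast and mural markers 5 were higher and 1 lower (sums 98531 to 111501 and 227131 to 255113). Col1a1, Col1a2, Acta2, Tagln and Myh11 were the higher ones and Rgs5 the lower one, while Pdgfra, Pdgfrb and Dcn did not pass. The mean of Col1a1 went from 13690 to 81690, and that of Pdgfra from 24978 to 23321. All 7 endothelial markers were lower (71327 to 72572 and 22155 to 23343). Of 12 medullary tubule markers 2 were higher and 7 lower (545430 to 579960 and 267215 to 358304). Beside these counts, 51.2% of all genes tested were called, 26.3% higher and 24.9% lower. The lymphocyte and neutrophil lists had a smaller share called than all genes. The part of these cells in the values of Arpc1b and the other subunits was not tested, and the counts do not show in which cells a subunit was transcribed.

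The other genes of the pathway had calls in both directions. Of 34 regulators, 15 were higher, 4 lower and 15 did not pass, with a median log2 difference of 0.19. The number called in either direction is near the 51.2% of all genes, of which 26.3% were higher and 24.9% lower. Among 11 activators and branch stabilisers, 4 were higher and 2 lower, a number called that is also near that share. Was, the WASP protein of blood cells, read 106 and 83.5 against 356 and 316, differing by 1.82 on the log2 scale (SE 0.20, limma adjusted p = 0.000443). Hcls1, the blood-cell relative of cortactin, had one of 1.52 (adjusted p = 7.86e-05) and Cttn, cortactin, which stabilises branches, one of 0.45 (adjusted p = 0.00433). Washc1, which encodes WASH, the activator on endosomes, had a difference of 0.27 (limma adjusted p = 0.0334) that lost the call without each of the 4 libraries (adjusted p = 0.0739 to 0.166), with the replicate block (0.0884) and with no variance trend (0.0731).

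Wasf3, a WAVE protein gene, fell from 610 and 674 to 287 and 415 (log2 difference -0.89, limma adjusted p = 0.00782). Nckipsd, also called SPIN90, which with the complex starts unbranched filaments, differed by -0.60 (adjusted p = 0.0185). It no longer passed without WT replicate 2 (-0.41, adjusted p = 0.0992), without KO replicate 2 (-0.47, adjusted p = 0.0614) and with no variance trend (adjusted p = 0.069). Wasl, which encodes the widely expressed N-WASP and was named after its value was seen, read 8797 and 8223 against 7642 and 7350 (log2 difference -0.18, limma adjusted p = 0.087). The 5 activators that did not pass lay between -0.23 and 0.09.

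Of the 10 inhibitors and debranching factors, 6 were higher and 2 lower, with a median log2 difference of 0.44, beside 26.3% higher and 24.9% lower among all genes. The coronins of the Coro1 genes bind the complex and loosen branches, and Coro2a and Coro2b were listed as members of the same family. Coro1a, the blood-cell coronin, read 436 and 390 against 1869 and 1803 (log2 difference 2.15, SE 0.11, limma adjusted p = 1.96e-05), and Coro2a read 232 and 296 against 1107 and 730 (1.77). The widely expressed Coro1c and Coro1b had log2 differences of 0.65 and 0.52, while Coro2b, known from neurons and podocytes, fell by 1.10 on the log2 scale (adjusted p = 0.000692). Gmfg, a debranching factor of blood cells, had a difference of 1.12 (adjusted p = 0.0035). Arpin, an inhibitor of the complex, had one of 0.36 (limma adjusted p = 0.0236), lost without WT replicate 1 (0.26, adjusted p = 0.106), without KO replicate 1 (0.29, adjusted p = 0.124) and with no variance trend (adjusted p = 0.0803), and Pick1 fell by 0.44 on the log2 scale (adjusted p = 0.00928).

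Of 13 GTPases and adaptors upstream of the activators, 5 were higher and 0 lower, with a median of 0.16. Fewer of them were called than the 51.2% of all genes, but all calls were higher, where 26.3% of all genes were higher and 24.9% lower. Rac2, the blood-cell Rac, read 200 and 131 against 758 and 746 (log2 difference 2.21, SE 0.21, limma adjusted p = 0.000234). Rac1, the widely expressed Rac, named after its value was seen, read 12559 and 12216 against 14097 and 13587 (0.16, limma adjusted p = 0.116). Rhog, Nck2, Wipf1 and Cdc42 had differences of 0.73, 0.51, 0.41 and 0.36; Cdc42 lost its call without KO replicate 1 (0.34, adjusted p = 0.0638), as did Nck2 (0.36, adjusted p = 0.059), which also lost it with no variance trend (adjusted p = 0.0517).

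**Figure D5:**
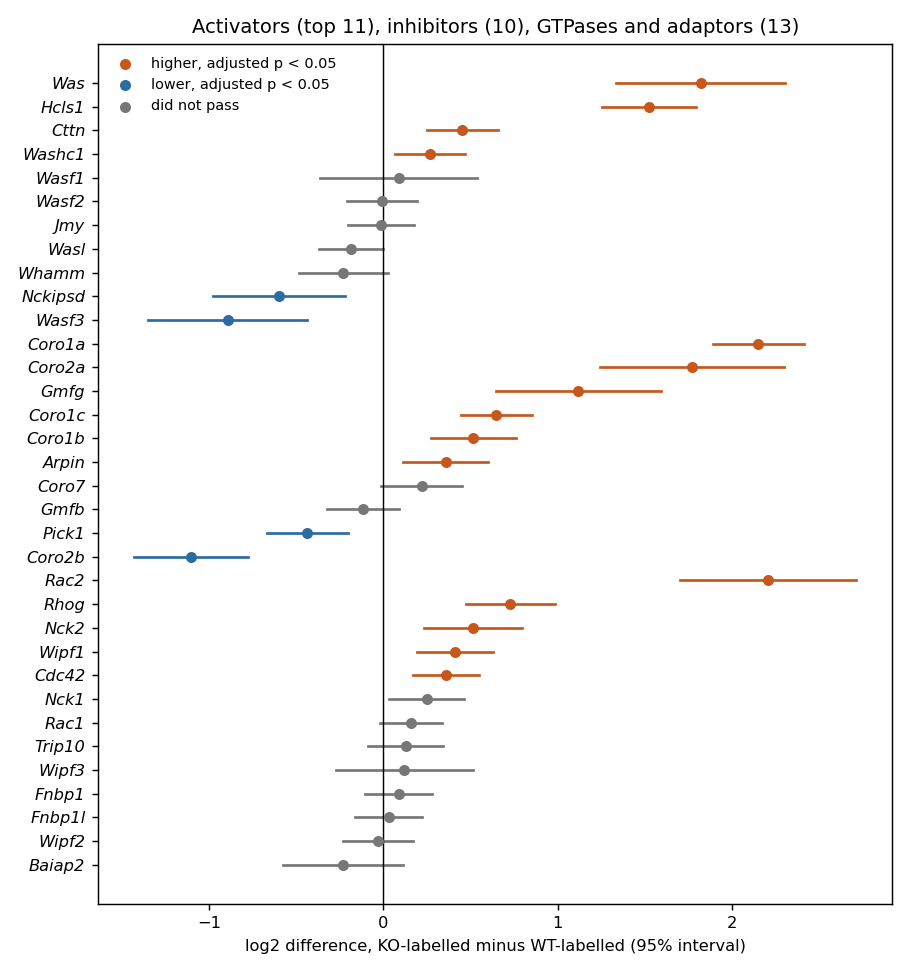
Log2 difference, KO-labelled minus WT-labelled, with its 95% interval (limma), for 11 activators, 10 inhibitors and debranching factors and 13 GTPases and adaptors, top to bottom; orange and blue mark higher and lower genes at an adjusted p under 0.05, grey those that did not pass. Was, Coro1a and Rac2 lie furthest to the right of their lists, at 1.82, 2.15 and 2.21, and Coro2b furthest to the left at -1.10.

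Of the actin-related proteins that are not in the complex, 7 were tested, of which 2 were higher, 1 lower and 4 did not pass, with a median log2 difference of -0.14. Among all genes 26.3% were higher and 24.9% lower, so these counts are near the background. Actr1a, the main actin-related protein of dynactin, had a difference of 0.36 (limma adjusted p = 0.00912), lost without KO replicate 1 (0.30, adjusted p = 0.0711) and with no variance trend (adjusted p = 0.0517). Actl6a, a chromatin remodelling subunit, had one of 0.24 (limma adjusted p = 0.0438), lost in 8 of the 15 other settings, among them without each of the 4 libraries (adjusted p = 0.0898 to 0.243). Actr6, also a chromatin remodelling subunit, read 1001 and 1006 against 610 and 653 and fell by 0.67 on the log2 scale (adjusted p = 0.00213). Actr1b, Actr10, Actr8 and Actr5 had differences of -0.10, -0.14, -0.19 and -0.31 and did not pass, and Actl6b had no reads in any library. The difference between this list and the subunits was not tested.

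Genes next to the subunit genes were read to see whether a locus moved as a whole. Of 36 tested neighbours, taken as the nearest 2 on each side, 9 were higher, 11 lower and 16 did not pass, with a median of -0.01. These counts are near the 26.3% higher and 24.9% lower among all genes. The nearest tested genes were not always close: Ddx18 lies 3824924 bases from Actr3. Around Arpc1a and Arpc1b, Pdap1, which starts 583 bases after the end of Arpc1b, read 2396 and 2458 against 3358 and 3371 (log2 difference 0.47, limma adjusted p = 0.0022). Smurf1, which lies on the other side of Arpc1a, had a difference of 0.69 (adjusted p = 0.000549), while Bud31 and Trrap had 0.19 and 0.18 and did not pass. Both called neighbours differed by less than Arpc1b at 1.55 and more than Arpc1a at 0.13.

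The genes with profiles most like those of 2 subunits over the 4 libraries were named by the Euclidean distance between centred log2 profiles. Genes with Gm or Rik names and IDs without a matched symbol were left out of this ranking. Nearest to Actr3 were Fam78a, Znf41-ps, Prkar1b, Msn and Zfp949, at distances of 0.019 to 0.034. Msn, moesin, a linker of actin to the membrane, read 18183 and 16875 against 29115 and 28652. Nearest to Arpc1b were Jpt1, Pdlim7, Srrm4, Fermt3 and Spock2, at 0.040 to 0.054. Jpt1, the nearest, read 1241 and 1244 against 3845 and 3404, and Pdlim7, which encodes an actin-associated PDZ and LIM domain protein, read 1507 and 1468 against 4597 and 4008. Srrm4, a splicing factor gene known from neurons, was low at 9.85 and 9.94 against 33.2 and 30.1. Fermt3, the integrin activator kindlin-3 of blood cells, read 308 and 292 against 916 and 865, and Spock2, an extracellular matrix proteoglycan gene, 625 and 596 against 1821 and 1730. With 4 libraries in 2 groups, such likeness mainly reflects a like difference between groups.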

How the data were processed

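Total RNA of the kidney medulla was sequenced in 2 WT-labelled and 2 KO-labelled libraries. The deposited signal values are gene read counts that the authors divided by 1 size factor per library, read from the values, which are whole multiples of 1 step in each column (100% within 0.001; the step of the second WT-labelled library is close to 1). Per the submitters' processing notes, the tools were DESeq2 2.11.40.7, featureCounts 2.0.1, HISAT2 2.2.1 and fastp 0.20.1, with mm10 and GRCm38 as builds; not given in the sources used here are annotation, strand setting and the treatment of reads with several matches. Recovered reads numbered 36482238 to 40784436 per library. Symbols and coordinates came from RefSeq (GRCm38.p6), with 25275 of 27179 IDs matched, and lengths and coding sequences from GENCODE M21.

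The test was limma 3.58.1 (R 4.3.3) on log2(value + 1), its variance following a trend in level, for 16253 genes with a mean of at least 10, two-sided, adjusted by Benjamini-Hochberg at 0.05; 10926 genes were not tested. Pair and balance tests repeated this fit after subtracting reference genes. Coding sequences were aligned with Biopython 1.88. The scripts were tested on simulated data. In ratio fits every row shares the reference gene's error, so their adjusted p is less reliable than that of single genes. In some simulated draws false calls of the ratio fit far exceeded the threshold's rate. The combined error largely avoided this for adjusted calls only. Its unadjusted p, the one printed here, was too small too often in some draws. The simulation changed far fewer genes than were called here and used only Arpc1a as reference. The members, lists, motifs and tests were chosen with earlier results of these data known. Named genes are the 10 subunits, called regulators, the other actin-related proteins, neighbours of Arpc1a and Arpc1b, and the 5 most alike profiles. Alternatives were other pseudocounts, filters, variance models and scalings, edgeR 4.0.16 and DESeq2 1.42.0 on recovered reads, a replicate block, and leaving out each library, with a lone library taken to have the spread of its counterpart group.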

Additional observations from a re-analysis of the deposited data

How the results depend on the processing

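The count of subunits called higher was 6 to 8 over 15 alternatives, and 0 were called lower in any. edgeR and DESeq2 on the recovered reads called 7 and 7 subunits higher. The Arpc1b to Arpc1a difference ranged from 1.32 to 1.52 and the Arpc5l to Arpc5 difference from -0.44 to -0.40 over 13 alternatives. These were 12 other ratio fits and the combined error with its unadjusted p. Both differences passed in each alternative that left out no library. The ratio fits all share the reference gene's error, so passing in each of them is not an independent check. A rescaling of the recovered reads, edgeR and DESeq2 were run on single genes only. The difference of Actr3b to Actr3 turned to -0.014 after quantile normalization and ranged from -0.11 to 0.43 when a library was left out, turning without KO replicate 2; it passed in none of its settings. Relative to the 4 reference subunits, 1 gene was higher and 2 lower in all 12. Among the other actin-related proteins the count called higher was 1 with no filter, with the replicate block and with DESeq2, 0 with no variance trend, and 0 to 1 when a library was left out. The count of neighbours called lower was 7 to 9 when a library was left out, the 7 without KO replicate 2. The causes of these changes were not tested. Regulators called higher numbered 11 to 16 and lower 3 to 5. Of the scalings, none moved the median of all genes by 0.1 or more. The replicate numbers did not pair the libraries (correlation of deviations -0.06), so the block is only an alternative: with the replicate block 7 subunits were higher, and across all genes 3810 were higher and 3619 lower, against 4277 and 4051 without it. Shares of Arpc1b and Arpc5l within their pairs depended on the length used: the KO-labelled means were 52.3% and 32.8% by merged exons and 67.3% and 25.2% by coding length. Depth limits Actr3b, at 32 to 76 reads per library.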

Other observations

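Genes known to be abundant in blood cells were set beside a widely expressed relative of the same pathway, in 6 pairs chosen after their values were seen. The log2 differences, KO-labelled minus WT-labelled, were 1.55 for Arpc1b and 0.13 for Arpc1a, 1.82 for Was and -0.18 for Wasl, and 1.52 for Hcls1 and 0.45 for Cttn. They were 2.15 for Coro1a and 0.52 for Coro1b, 1.12 for Gmfg and -0.12 for Gmfb, and 2.21 for Rac2 and 0.16 for Rac1. Because the pairs were chosen for these values, and Arpc1b with Arpc1a is among them, the order within the pairs is a description and supports nothing. The leukocyte and macrophage markers given in the report were higher in the same libraries, and their part in these values was not tested. Unlike the other first genes, which read 83.5 to 436 normalized counts in the WT-labelled libraries, Arpc1b read 3119 to 3204 there, close to Arpc1a at 3819 to 4272.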
